A study of Danio rerio with 6 samples.

Results

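The genes described here are those that copy DNA and those that divide the copied chromosomes. They were taken from the count table by a rule on gene symbols, which found 81 of the 30713 named genes. Of these, 49 formed a replication class and 32 a mitosis class. A filter on low counts passed 80 of them into the test, among 21617 genes in all, and the one left out was *mcm6l*, with between 2 and 11 counts per pool.

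RNA-Seq was performed on whole homogenized zebrafish larvae of the AB wild-type strain at 7 days post fertilization (dpf). Control larvae received 0% ethanol (EtOH), and larvae with embryonic alcohol exposure (EAE) received 1% EtOH from 12 hours post fertilization to 5 dpf. Both groups then spent the time to 7 dpf in EtOH-free water with paramecia as food (the general growth protocol also names artemia), so that the comparison asks what differs after exposure has ended. Each group had 3 pools of 30 larvae of mixed sizes. The labels describe the larvae as siblings and the study's methods describe combined clutches, so the *P* values measure the spread between these pools, which may be partly technical.

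Counts totalled between 17264955 and 23638705 per pool. Levels are given as CPM, the count scaled to a common library size with TMM (trimmed mean of M values) factors, in the order of replicates 1, 2 and 3. Markers of neurons, skeletal muscle, liver, exocrine pancreas, skin, intestine and lens were all read, with a summed level of at least 1093 CPM for each list in every pool, as a whole larva should give.

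Before a cell divides, the origin recognition complex, Cdc6 and Cdt1 load the MCM helicase onto DNA, and kinases then activate it with the help of Cdc45 and the GINS complex. Polymerases copy the opened strands, held on the DNA by the PCNA clamp that replication factor C loads, and ribonucleotide reductase supplies the building blocks. In mitosis, Cdk1 with cyclins A and B drives condensation of the chromosomes and assembly of the spindle, and kinetochores attach each chromosome to it until Cdc20 triggers separation. In a larva of this age, cells that divide are expected in the growth zones of the retina and brain, in the gut, the liver, the blood and the germ line, while most neurons and muscle fibers have left the cell cycle.

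At the adjusted threshold, the share of mitosis genes called higher in EAE larvae exceeded that of all genes. For replication genes that share was near that of all genes in the main fit. It was above that of all genes at an unadjusted *P* under 0.05 and with no filter on low counts, a setting whose limit is given below. Nearly all members of both classes had a higher mean in EAE larvae. Of the 32 mitosis members, 12 (37.5%) were higher and 0 lower at an adjusted *P* under 0.05 by the quasi-likelihood test of edgeR, adjusted by Benjamini-Hochberg over all genes, against 7.22% higher and 6.95% lower among all genes tested. Of the 48 replication members tested, 3 (6.25%) were higher and 0 lower. At an unadjusted *P* under 0.05, 19 of 32 mitosis members and 19 of 48 replication members were higher, while 0 mitosis members and 1 replication member were lower. The share among all genes was 14.5% higher and 14.3% lower. DESeq2 called 8 of 32 mitosis and 2 of 48 replication members higher (with 4.55% of all genes). With no filter on low counts, edgeR called 18 of 32 mitosis (56.2%) and 12 of 49 replication members (24.5%) higher, with 6.49% of all genes. In that fit fold changes hardly moved while adjusted *P* fell. For *pcna* the log2 fold change was 0.42 in both fits, with an adjusted *P* of 0.0033 in the main fit and 4.2e-06 without the filter. The extra calls therefore do not reflect larger changes. With a minimum of 1 CPM in 3 pools, 4 of 47 replication members (8.51%) were higher, with 7.82% of all genes. In whole larvae, more dividing cells and more RNA per dividing cell cannot be told apart.

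The differences were small in both classes. The median log2 fold change was 0.39 for mitosis (quartiles 0.27 and 0.44), equal to 31.1% higher in EAE larvae, and 0.22 for replication (quartiles 0.13 and 0.32), equal to 16.9% higher. The median of all genes tested was 0.0008, with quartiles at −0.14 and 0.13. All 32 mitosis members and 44 of the 48 replication members had a higher mean in EAE larvae, against 50.2% of all genes. All 3 EAE pools lay above all 3 control pools for 12 mitosis and 10 replication members (37.5% and 20.8%), against 16.0% of all genes. The standard errors (SE) of the log2 fold changes were alike in the classes, with a median of 0.139 for mitosis and 0.129 for replication. No test of the difference between the classes was made.

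**Figure D1:**
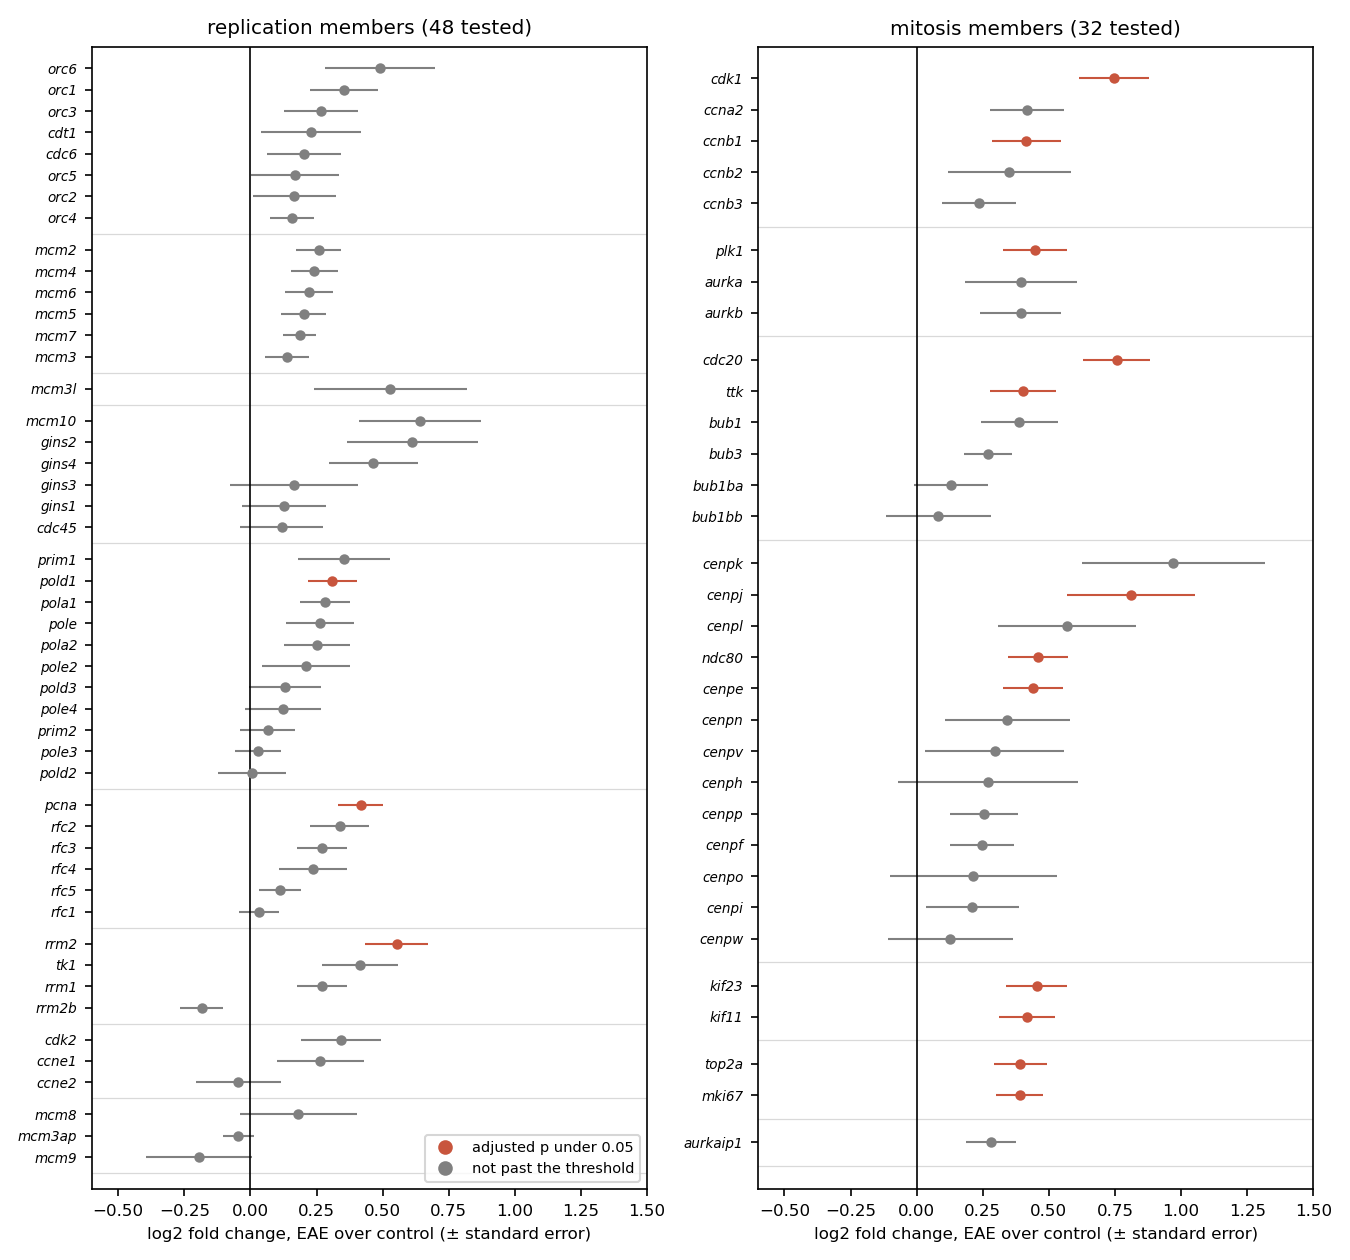
Log2 fold change of each tested member, EAE over control, with its standard error (horizontal bars), by class, and with members past the adjusted *P* threshold of 0.05 set apart from the others. The 12 called mitosis members and the 3 called replication members all lie to the right of 0, and the 4 replication members to its left did not pass the test.

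The calls depended on single pools. Without control replicate 1, 2 mitosis members were called higher (6.25%, with 4.37% of all genes), and without EAE replicate 3 there were 19 (59.4%, with 6.86% of all genes). For replication the count ran from 2, without control replicate 1, EAE replicate 1 or EAE replicate 2, to 19 without EAE replicate 3 (39.6%). Without control replicate 2, control replicate 3, EAE replicate 1 and EAE replicate 2, mitosis counts were 4, 14, 6 and 4 (12.5%, 43.8%, 18.8% and 12.5%), with 4.83%, 5.22%, 4.24% and 6.17% of all genes. Without control replicate 3, the count for replication was 6 (12.5%). The 4 members past the threshold whichever pool was left out were *pcna*, *rrm2*, *cdk1* and *cdc20*. All 15 called members kept a positive fold change in each of the 6 fits.

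**Figure D2:**
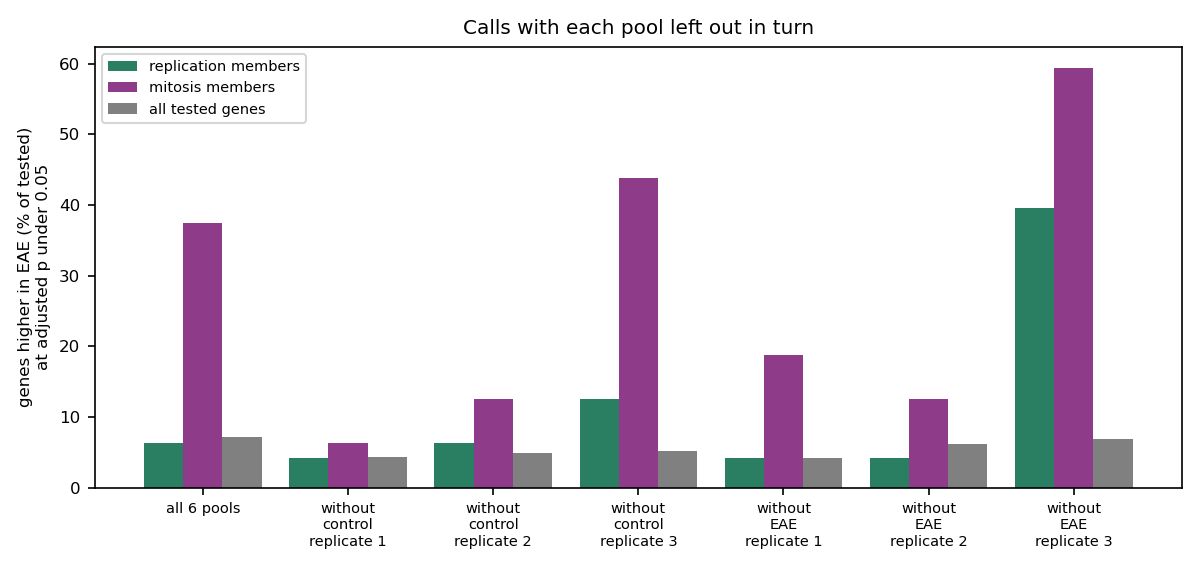
Percent of tested genes called higher in EAE larvae at an adjusted *P* under 0.05, with all 6 pools and with each pool left out in turn, for replication members, mitosis members and all tested genes. The mitosis share falls from 37.5% to 6.25% without control replicate 1 and rises to 59.4% without EAE replicate 3, where the replication share reaches 39.6%.

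Loading of the helicase comes first in the order of events. Of the 8 genes for origin recognition and MCM loading (*orc1* to *orc6*, *cdc6* and *cdt1*), 0 were called, 2 had an unadjusted *P* under 0.05, and the median log2 fold change was 0.22. Their summed level ran from 35.4 to 39.8 CPM in control pools and from 40.2 to 49.2 CPM in EAE pools. These sums did not overlap, but the sum carries no test. The groups were apart for 2 of the 8 (25%), *orc4* and *orc6*, while 16.0% of all genes had every EAE pool above every control pool. Log2 fold changes of *orc4* and *orc6* were 0.16 and 0.49, with adjusted *P* of 0.23 and 0.12 in the edgeR test.

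The 6 subunits of the MCM helicase, which unwinds DNA at the fork, were not called, and *mcm7* and *mcm2* lay just outside the threshold. *mcm2* measured 37.3, 40.3 and 41.3 CPM in control pools and 48.5, 54.2 and 39.3 CPM in EAE pools. *mcm7* measured 72.5, 71.3 and 79.4 CPM in control pools and 84.2, 91.9 and 78.0 CPM in EAE pools. For each of them EAE replicates 1 and 2 stood above every control pool and EAE replicate 3 among the controls. The same order held for *mcm4*, *mcm5* and *mcm6*, and for *mcm3* EAE replicate 3 was below every control pool, so that groups overlapped for all 6 subunits. Log2 fold changes were 0.26 for *mcm2*, 0.14 for *mcm3*, 0.24 for *mcm4*, 0.20 for *mcm5*, 0.22 for *mcm6* and 0.19 for *mcm7*. Their adjusted *P* in the edgeR test ran from 0.051 for *mcm7* to 0.29 for *mcm3*, and 5 of the 6 had an unadjusted *P* under 0.05. With no filter on low counts, *mcm2*, *mcm4*, *mcm6* and *mcm7* passed the threshold, at log2 fold changes that rounded to the same values.

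Of the 6 genes that activate the loaded helicase (*cdc45*, *gins1* to *gins4* and *mcm10*), 0 were called, with a median log2 fold change of 0.31. *mcm10*, which helps to start unwinding, had the largest log2 fold change of the class, 0.64 ± 0.23 (SE, adjusted *P* = 0.070 by edgeR), followed by *gins2*, a GINS subunit, with 0.61 ± 0.25 (adjusted *P* = 0.11). Both were read at 20 to 50 counts per pool. *cdc45*, which joins MCM and GINS in the active helicase, measured 3.73, 2.90 and 3.84 CPM in control pools and 3.39, 3.96 and 4.13 CPM in EAE pools. Its log2 fold change of 0.12 lay within the spread of the pools (adjusted *P* = 0.67 by edgeR).

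Of the 11 genes for DNA polymerases and primase, 1 rose (9.09%), which is near the 7.22% of all genes called higher. *pold1*, the catalytic subunit of polymerase delta, measured 16.5, 14.9 and 17.6 CPM in control pools and 21.7, 21.9 and 17.2 CPM in EAE pools. EAE replicates 1 and 2 were above every control pool and EAE replicate 3 was below control replicate 3. The log2 fold change was 0.31 ± 0.09 (SE, adjusted *P* = 0.033 by edgeR), but it passed in 2 of the 6 fits that left out a pool and was lost with DESeq2 (0.064). *pola1*, the catalytic subunit of polymerase alpha that starts each strand, lay just outside with 0.28 (adjusted *P* = 0.054). The others ran from 0.01 for *pold2* to 0.36 for *prim1*, a primase subunit.

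Of the 6 genes for the clamp and its loader, *pcna* alone rose (16.7% of the 6, with 7.22% of all genes). It measured 63.4, 68.6 and 79.3 CPM in control pools and 97.8, 104 and 80.0 CPM in EAE pools. All EAE pools were above all control pools, although EAE replicate 3 was above control replicate 3 by less than 1 CPM. The log2 fold change was 0.42 ± 0.08 (SE), or 1.33-fold, with an adjusted *P* of 0.0033 by edgeR. The loader subunits *rfc2* and *rfc3* also had every EAE pool above every control pool. With *pcna* this made 3 of the 6 (50%), against 16.0% of all genes. Both loader subunits missed the threshold, with log2 fold changes of 0.34 and 0.27 and adjusted *P* of 0.053 and 0.059. The largest loader subunit, *rfc1*, had a log2 fold change of 0.03.

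Among the 4 genes for the supply of deoxynucleotides, *rrm2* alone rose (25% of the 4, with 7.22% of all genes). It encodes the small subunit of ribonucleotide reductase that cells make when they copy DNA. It measured 5.50, 6.37 and 7.28 CPM in control pools and 9.15, 10.3 and 8.66 CPM in EAE pools. No EAE pool overlapped the controls, and the log2 fold change was 0.55 ± 0.12 (SE, adjusted *P* = 0.0048 by edgeR). *rrm1*, the large subunit, had a log2 fold change of 0.27 and *tk1*, a thymidine kinase, one of 0.42, with adjusted *P* of 0.060 and 0.061. A paralog of *rrm2*, *rrm2b*, another small subunit, had the opposite order. *rrm2b* measured 12.9, 13.4 and 13.7 CPM in control pools and 11.7, 12.1 and 11.4 CPM in EAE pools. All EAE pools were below all control pools, with a log2 fold change of −0.18 that did not pass (adjusted *P* = 0.14 by edgeR).

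The genes for cyclin E and its kinase Cdk2, which act at entry into S phase, gave 0 calls among 3. *ccne2* measured 3.93, 3.48 and 4.13 CPM in control pools and 3.74, 4.45 and 3.02 CPM in EAE pools, so that the groups lay on top of each other (log2 fold change −0.05). *ccne1* and *cdk2* had log2 fold changes of 0.26 and 0.34 (adjusted *P* of 0.31 and 0.14 by edgeR). The remaining symbols that begin with mcm were also not called. *mcm8* and *mcm9*, helicases of DNA repair, had log2 fold changes of 0.18 and −0.20, and *mcm3ap*, an RNA export factor that carries the symbol but does not replicate DNA, had −0.05. *mcm3l*, a gene named for its likeness to *mcm3*, was read at 12 to 22 counts per pool and had a log2 fold change of 0.53 (adjusted *P* = 0.24). How reads shared by close copies were counted is not given in the sources used here, which leaves *mcm3l* and *mcm6l* uncertain.

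**Figure D3:**
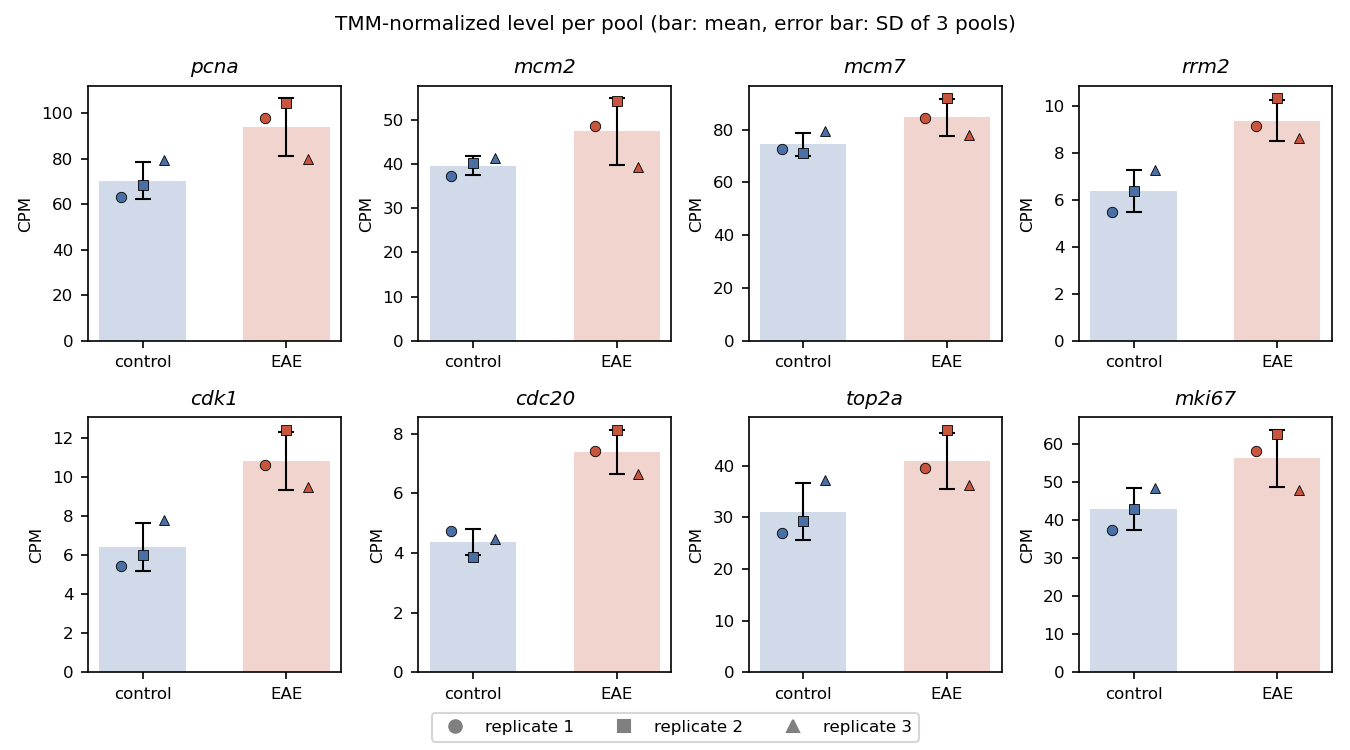
CPM (vertical axis, from 0) of 8 members, *pcna*, *mcm2*, *mcm7*, *rrm2*, *cdk1*, *cdc20*, *top2a* and *mki67*, with points for the 3 pools of each group, bars for the mean and error bars for the SD. For *pcna*, *rrm2*, *cdk1* and *cdc20* the 3 EAE points lie above the 3 control points, while for *mcm2* EAE replicate 3 lies among the controls.

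In mitosis, the kinase that starts division had one of the largest changes. *cdk1* measured 5.45, 6.02 and 7.82 CPM in control pools and 10.6, 12.4 and 9.46 CPM in EAE pools. Every EAE pool was above every control pool. The log2 fold change was 0.75 ± 0.13 (SE), or 1.68-fold, with an adjusted *P* of 0.0011 by edgeR. Of its cyclins, *ccnb1* rose, at 6.05, 5.73 and 6.46 CPM in control pools and 8.12, 9.60 and 6.64 CPM in EAE pools. The groups did not overlap, and the log2 fold change was 0.41 ± 0.13 (SE, adjusted *P* = 0.040), a call that held in 1 of the 6 fits that left out a pool and was lost with DESeq2 (0.089) and limma-voom (0.053). *ccna2*, *ccnb2* and *ccnb3* had log2 fold changes of 0.42, 0.35 and 0.24 (adjusted *P* of 0.052, 0.34 and 0.28 by edgeR). For *ccnb2* and *ccnb3*, as for *cdk1* and *ccnb1*, all EAE pools were above all control pools, as for 16.0% of all genes. The margins of *ccnb2* and *ccnb3* were very small. *ccnb2* measured 1.457 CPM in control replicate 3 and 1.460 CPM in EAE replicate 1, at 30 and 34 counts. *ccnb3* measured 4.42 CPM in control replicate 3 and 4.48 CPM in EAE replicate 3.

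Of the 3 mitotic kinases, *plk1* alone rose (33.3% of the 3, with 7.22% of all genes). It encodes Polo-like kinase, which acts at the centrosome, the kinetochore and the site of cell separation. *plk1* measured 9.38, 10.5 and 12.9 CPM in control pools and 15.03, 17.3 and 12.4 CPM in EAE pools. EAE replicate 3 fell below control replicate 3, and the log2 fold change was 0.45 ± 0.12 (SE, adjusted *P* = 0.019 by edgeR), called in 2 of the 6 fits that left out a pool. *aurka* and *aurkb*, the Aurora kinases of the spindle poles and of the inner centromere, both had a log2 fold change of 0.39 and adjusted *P* of 0.23 and 0.094. Control replicate 2 was low for *aurka*, with 1.45 CPM against 2.62 and 3.30 CPM in the other control pools. *aurkaip1*, which shares the symbol but encodes a protein of the mitochondrial ribosome, had a log2 fold change of 0.28 (adjusted *P* = 0.055).

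*cdc20*, the activator of the ligase that ends metaphase, had the lowest adjusted *P* of all members. It measured 4.74, 3.88 and 4.47 CPM in control pools and 7.43, 8.11 and 6.64 CPM in EAE pools. Every EAE pool was well above every control pool, with a log2 fold change of 0.76 ± 0.13 (SE), or 1.69-fold, and an adjusted *P* of 0.00074 by edgeR. The kinase of the spindle checkpoint, *ttk*, rose as well. *ttk* measured 6.20, 5.27 and 6.75 CPM in control pools and 7.86, 9.25 and 7.10 CPM in EAE pools, with groups apart. Its log2 fold change was 0.40 ± 0.13 (SE, adjusted *P* = 0.040), which DESeq2 did not call (0.095) and which held in 2 of the 6 fits that left out a pool. The other checkpoint genes were not called. *bub1* and *bub3* had log2 fold changes of 0.39 and 0.27 (adjusted *P* of 0.082 and 0.055), and the duplicated genes *bub1ba* and *bub1bb* had the low values of 0.13 and 0.08.

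Of the 13 genes for centromere and kinetochore proteins, 3 rose (23.1%, with 7.22% of all genes). *ndc80*, part of the complex that grips microtubules, measured 5.29, 6.26 and 6.31 CPM in control pools and 8.03, 8.66 and 7.85 CPM in EAE pools. The groups did not overlap, and the log2 fold change was 0.46 ± 0.11 (SE, adjusted *P* = 0.011 by edgeR), called in 5 of the 6 fits that left out a pool. *cenpe*, a kinesin that moves chromosomes to the spindle's middle, measured 15.3, 12.2 and 17.7 CPM in control pools and 21.0, 23.2 and 17.4 CPM in EAE pools. EAE replicate 3 lay just under control replicate 3, and the log2 fold change was 0.44 ± 0.11 (SE, adjusted *P* = 0.015), called in 2 of the 6 fits. *cenpj*, which despite its symbol is known for building centrioles, was read at 18, 21 and 30 counts in control pools and 44, 54 and 35 counts in EAE pools, with a log2 fold change of 0.81 ± 0.24 (adjusted *P* = 0.031), called in 2 of the 6 fits. All EAE pools were above all control pools for *cenpj*, at low counts. DESeq2 gave *cenpj* no adjusted *P* and so did not call it.

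The remaining 10 centromere genes were not called, and most were read at low counts. The largest fold change of all members was that of *cenpk*, which measured 0.71, 1.04 and 0.63 CPM in control pools and 2.15, 1.68 and 0.70 CPM in EAE pools. EAE replicates 1 and 2 were high and EAE replicate 3 was among the controls, so that its log2 fold change of 0.97 ± 0.35 did not pass (SE, adjusted *P* = 0.068 by edgeR). Among these 10 centromere genes the lowest was that of *cenpw*, a log2 fold change of 0.13 (adjusted *P* = 0.77 by edgeR).

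Both motors of the spindle rose, and both markers of the dividing chromosome, with 7.22% of all genes called higher. *kif11*, the kinesin that pushes the spindle poles apart, measured 12.7, 10.8 and 14.8 CPM in control pools and 17.2, 19.0 and 15.2 CPM in EAE pools. *kif23*, a kinesin of the midzone that acts when the cell splits, measured 7.97, 7.59 and 8.89 CPM in control pools and 11.6, 12.7 and 9.16 CPM in EAE pools. Groups did not overlap for these motors, while 16.0% of all genes had every EAE pool above every control pool. EAE replicate 3 came close to control replicate 3 in both motors. Log2 fold changes were 0.42 ± 0.11 and 0.45 ± 0.12 (SE, adjusted *P* = 0.013 and 0.015 by edgeR), called in 3 and 2 of the 6 fits that left out a pool.

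*top2a*, the topoisomerase that untangles sister chromosomes, measured 26.9, 29.2 and 37.3 CPM in control pools and 39.6, 47.0 and 36.3 CPM in EAE pools. *mki67*, which coats mitotic chromosomes and is widely used as a marker of cycling cells, measured 37.5, 42.8 and 48.4 CPM in control pools and 58.1, 62.5 and 47.9 CPM in EAE pools. In both genes EAE replicate 3 was just below control replicate 3 and above the other control pools. Log2 fold changes were 0.39 ± 0.10 for *top2a* and 0.39 ± 0.09 for *mki67* (SE, adjusted *P* = 0.015 and 0.0073 by edgeR). *top2a* was not called by DESeq2 (0.16) and held in 3 of the 6 fits that left out a pool, while *mki67* held in 5.

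**Figure D4:**
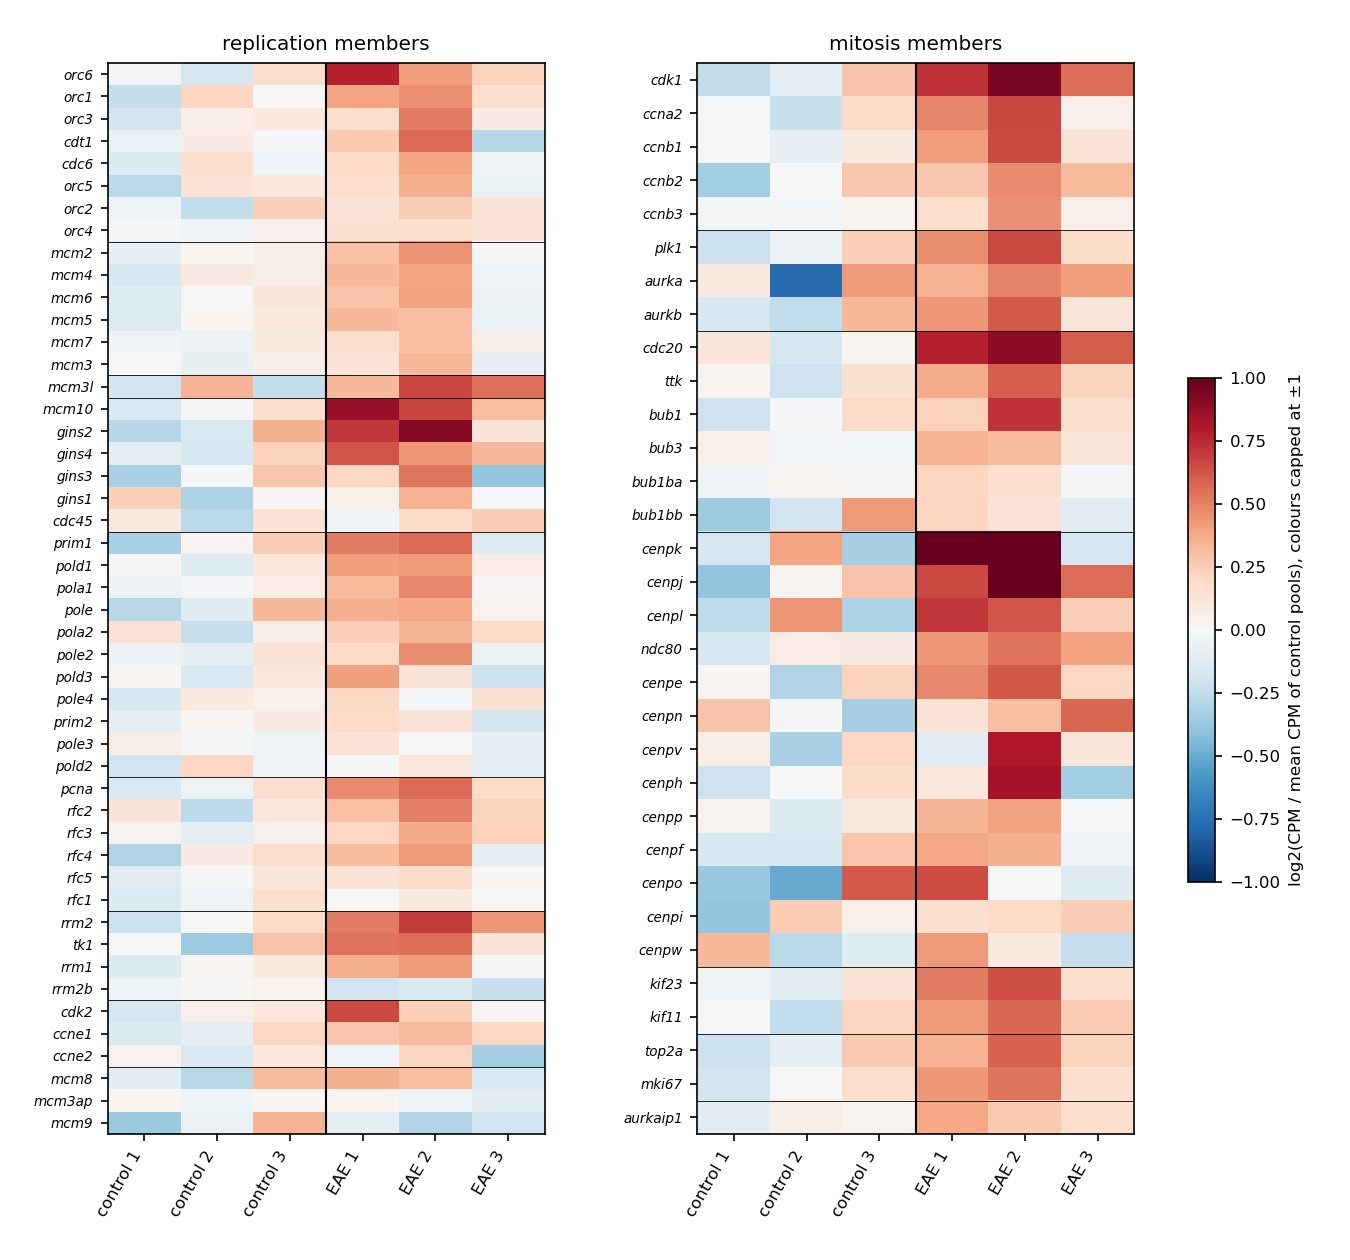
Log2 of each tested member's CPM over the mean of the control pools, in the 6 pools, with genes in rows by class and role and colors capped at 1 in either direction. The columns of EAE replicates 1 and 2 are red in nearly every row, control replicate 3 is mostly light red, and EAE replicate 3 is paler than the other EAE pools.

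The members varied together from pool to pool. EAE replicate 3 was the lowest EAE pool in 42 of 48 replication members (87.5%) and 27 of 32 mitosis members (84.4%), against 31.2% of all genes tested. Control replicate 3 was the highest control pool in 72.9% and 71.9% of the classes, against 33.6% of all genes. EAE replicate 2 was the highest of all 6 pools in 66.7% and 65.6%, against 14.7% of all genes. The order of the pools was thus shared by members of both classes, and members are not independent replicates of one another. Control replicate 3 was also the deepest control pool, with 20724876 counts, and EAE replicate 3, with 20066388, lay between the other EAE pools in depth. The part of depth in this order was not tested.

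The 3 EAE pools stood unequally far from the controls. EAE replicate 1 was above the highest control pool for 38 of 48 replication (79.2%) and 26 of 32 mitosis members (81.2%), against 34.1% of all genes. For EAE replicate 2 the counts were 40 (83.3%) and 28 (87.5%), against 31.1% of all genes. EAE replicate 3 was above it for 13 of 48 replication members (27.1%) and 13 of 32 mitosis members (40.6%), against 32.2% of all genes. In that pool, then, replication members exceeded the controls no more often than genes in general did.

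**Figure D5:**
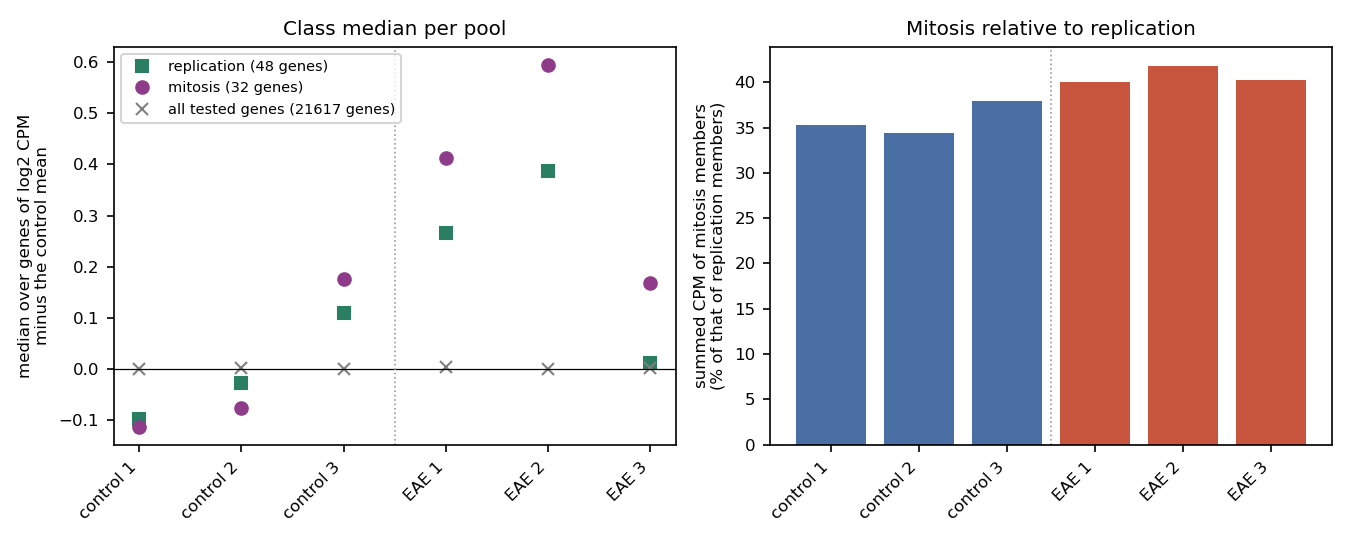
Left, median over each class and over all tested genes of log2 CPM minus the mean of the control pools, in each of the 6 pools; right, summed CPM of the mitosis members as a percent of that of the replication members. The mitosis median lies above the replication median in all 3 EAE pools, and the medians of control replicate 3 and EAE replicate 3 lie close together for mitosis, while the percentages of 40.0% to 41.8% in EAE pools all exceed those of 34.4% to 37.9% in control pools.

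Set against the replication genes of the same pool, the mitosis genes stood higher in EAE larvae. The median of the replication members, on the log2 scale relative to the control mean, was −0.10, −0.03 and 0.11 in control pools and 0.27, 0.39 and 0.01 in EAE pools. That of the mitosis members was −0.11, −0.08 and 0.18 in control pools and 0.41, 0.59 and 0.17 in EAE pools. Each class thus overlapped between groups through control replicate 3 and EAE replicate 3. The difference of the medians, mitosis minus replication, was −0.01, −0.05 and 0.06 in control pools and 0.15, 0.21 and 0.16 in EAE pools, and did not overlap. The summed level of the mitosis members was 35.3%, 34.4% and 37.9% of that of the replication members in control pools and 40.0%, 41.8% and 40.3% in EAE pools. These values describe 3 pools against 3, a size at which an exact two-sided permutation test cannot go below *P* = 0.1.

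Genes of the same machinery and its regulators that the symbols leave out gave 23 higher (19.2%) and 2 lower among 120 tested. Among all genes, 7.22% were higher and 6.95% lower. The median log2 fold change of the 120 was 0.24. The number higher ran from 6 without control replicate 1 (4.37% of all genes) to 39 without EAE replicate 3 (6.86% of all genes). For replication, 0 of 12 other licensing and origin firing genes and 4 of 19 other fork and nucleotide genes were higher, with medians of 0.15 and 0.23. *chaf1a* and *chaf1b*, subunits of the factor that places histones on new DNA, rose by 0.42 and 0.54 on the log2 scale (adjusted *P* = 0.0070 and 0.037 by edgeR), and *atad5a*, whose product unloads PCNA, by 0.39 (0.027). *chaf1a* was called in all 6 fits that left out a pool, and *chaf1b* and *atad5a* in 2 of them.

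Of 35 other regulators of S phase and mitosis, 5 were higher (14.3%, with 7.22% of all genes) and 0 lower, with a median log2 fold change of 0.10. *mybl2b*, a transcription factor of cycling cells, and *ccnd2a*, a D-type cyclin, rose by 0.48 and 0.27 on the log2 scale (adjusted *P* = 0.018 and 0.019 by edgeR). They were called in 3 and 2 of the 6 fits that left out a pool. Also higher were 2 genes that restrain the cell cycle, by 0.54 and 0.29 on the log2 scale (adjusted *P* = 0.021 and 0.047 by edgeR). These were *e2f8*, a repressor of cell cycle genes, and *cdkn1ca*, an inhibitor of cyclin-dependent kinases. All EAE pools were above all control pools for both, as for 16.0% of all genes. Their fits with a pool left out are not given here.

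Other kinetochore and spindle genes gave 8 higher (21.6%, with 7.22% of all genes) and 0 lower among 37, with a median of 0.32. *anln*, the scaffold of the contractile ring, measured 8.87, 9.44 and 10.6 CPM in control pools and 16.9, 18.2 and 12.3 CPM in EAE pools, all above the controls. Its log2 fold change was 0.71 ± 0.12 (SE, adjusted *P* = 0.00079 by edgeR). *kif20a*, a kinesin of the midzone, rose by 0.67 and *prc1b*, a bundler of midzone microtubules, by 0.81. *anln* and *kif20a* were called in all 6 fits that left out a pool and *prc1b* in 5.

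Among 17 condensin, cohesin and related genes, 6 were higher (35.3%) and 2 lower, with 7.22% higher and 6.95% lower among all genes. Those higher were the condensin genes *smc2*, *smc4*, *ncapd2*, *ncapg* and *ncaph2*, and *smc5*, which belongs to neither complex. Both lower genes were cohesin genes. *smc4*, a condensin subunit that compacts mitotic chromosomes, rose by 0.46 on the log2 scale (adjusted *P* = 0.012 by edgeR), called in 2 of the 6 fits that left out a pool. In contrast, the cohesin gene *smc1a* measured 41.3, 42.9 and 39.9 CPM in control pools and 31.9, 35.8 and 32.4 CPM in EAE pools. *rad21b*, one of 2 zebrafish genes for the cohesin ring's clasp, measured 34.99, 36.0 and 34.6 CPM in control pools and 27.1, 28.6 and 29.2 CPM in EAE pools. All EAE pools were below all control pools in both, as for 16.0% of all genes. Log2 fold changes were −0.31 ± 0.06 and −0.32 ± 0.06 (SE, adjusted *P* = 0.0031 and 0.0023), called in all 6 fits that left out a pool. Cohesin also shapes interphase chromosomes in cells that do not divide. The partner genes *smc3*, *rad21a* and *stag2b*, chosen after their values were seen, had log2 fold changes of −0.07, 0.03 and −0.04.

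Markers of tissues that could hold dividing cells did not all move with the members. Among all genes tested 7.22% were higher and 6.95% lower, so 0 calls in a list this short lie near the share of all genes. The 7 tested genes of germ cells gave 0 calls. Summed levels over the 13 listed genes in the count table, tested or not, were 13.1 to 20.4 CPM in control pools and 15.2 to 18.9 CPM in EAE pools. Among the untested, *nanos3* had 0 counts in every pool, although an expected count of up to about 3 over the 6 pools together could still give 0. Of 9 tested thymus lymphocyte genes 0 were called, and sums over the 10 in the count table overlapped, at 45.5 to 61.8 CPM and 46.9 to 55.0 CPM. Of 9 tested genes of blood progenitors and red cells, *myb* was higher (log2 fold change 0.45) and *tal1* lower (−0.25). Sums over the 12 in the count table, 84.9 to 90.2 CPM and 91.5 to 99.1 CPM, did not overlap. These sums weigh genes by level, and *myb* had the highest mean level of the list in both groups. The median log2 fold change of the 9 was −0.015, with 4 higher and 5 lower in mean, so the list as a whole did not rise. Of 16 neural and retinal progenitor genes, 0 were higher and 5 lower, with sums of 498 to 550 CPM and 490 to 510 CPM.

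Markers of some mature tissues also differed between the groups, to be read against 7.22% higher and 6.95% lower among all genes tested. Of 6 neuron genes 5 were lower, with sums of 1356 to 1376 CPM in control pools and 1093 to 1225 CPM in EAE pools. Of 6 liver genes 4 were higher, with sums of 2652 to 2875 CPM and 2996 to 3349 CPM, and of 6 lens genes 3 were higher, with sums of 2329 to 2884 CPM and 3251 to 3352 CPM. Of 5 skin genes 2 were higher and 1 lower, with sums of 8585 to 9219 CPM and 7846 to 8574 CPM. Muscle, pancreas and intestine gave 0 calls among 6, 5 and 5 genes, lists too short to set apart from the share of all genes. Their sums overlapped between the groups. The part of tissue makeup in the members' levels was not tested.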

How the data were processed

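The deposited table gave raw counts by gene symbol in the 6 pools, which the authors made from poly-A selected, single-end reads aligned to GRCz10 with STAR, without normalization. The counting program, annotation, strand and handling of multiply aligned reads are not given in the sources used here. A row with no gene name (1.49% to 1.57% of counts) was left out. The 17 names that had turned into dates stayed among the 30713 named genes, and none of them was a member.

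Counts were tested with edgeR 4.0.16 (quasi-likelihood *F* test, TMM, filterByExpr, no covariate) in R 4.3.3, adjusted by Benjamini-Hochberg over 21617 genes with a threshold of 0.05. The study's own test, DESeq2 (1.42.0), was an alternative, as were limma-voom (limma 3.58.1), other scalings and filters, a replicate block and each pool left out. SE is that of the log2 fold change, worked back from the test as the absolute log2 fold change divided by the square root of *F*. Replicates of a group differed by more than counting noise (chi-square per degree of freedom 3.54 to 5.06).

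Members and lists were chosen with earlier results of these data known. Named were called members, the 3 highest and 3 lowest fold changes per class, a set of core genes, and up to 3 genes per other list by lowest *P*. Others are given for completeness of a complex, family or list and were chosen after their values were seen. Promoter sequences were not used here, and 1 gene of the other lists is not reported here.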

Additional observations from a re-analysis of the deposited data

How the results depend on the processing

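Leaving out each pool in turn gave 2 to 19 calls for replication, 2 to 19 for mitosis, 8 to 41 for the other cell cycle genes and 1641 to 2996 for all genes, against 3, 12, 25 and 3063. DESeq2 called 1909 genes in all, 2 of replication, 8 of mitosis and 17 of the other cell cycle genes, and with no filter on low counts replication had 12 calls, mitosis 18 and the other genes 32. Limma-voom, both other scalings and a minimum of 1 CPM in 3 pools kept the replication count at 3 or 4 and the mitosis count at 11 or 12. The medians of log2 fold change stayed positive throughout, from 0.14 (without EAE replicate 2) to 0.32 (without EAE replicate 3) for replication and from 0.29 (without EAE replicate 2) to 0.50 (without control replicate 3) for mitosis. Without *mcm3ap* and *aurkaip1*, 3 of 47 and 12 of 31 members were higher. DESeq2 gave no adjusted *P* to some named genes, *cenpj* among them, and those values are not counted next. Over the named genes and all alternatives, 552 values kept their sign and their side of the threshold, 69 lost a call and 30 gained one. Another 6, all of genes not called, changed sign when a pool was left out: *bub1bb* without control replicates 1 (−0.078) and 2 (−0.00096; range to 0.37), *mcm9* without control replicate 3 (0.033; range from −0.36), *ccne2* without control replicate 3 (0.013) and EAE replicate 3 (0.079; range from −0.18), and *cenpw* without EAE replicate 1 (−0.065; range to 0.32). The cause was not tested. Control and EAE pools of the same number correlated at −0.0086, −0.034 and −0.093 in their deviations from the group means. Pools of different number correlated at −0.033 to 0.068. These values gave no sign of pairing by number. All lay near 0, so they cannot show whether pools of the same number shared a clutch or batch. With the replicate block, calls numbered 2 for replication, 10 for mitosis, 18 for the other genes and 2336 for all genes. Genes read at under about 50 counts per pool, among them most centromere genes, had wide SE (up to 0.35 on the log2 scale).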
